A study of Mus musculus with 12 samples.

Results

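The genes described here are 10 well-known transcriptional responders to glucocorticoid hormone, namely Tsc22d3, Fkbp5, Zbtb16, Klf9, Sgk1, Dusp1, Pdk4, Angptl4, Cebpd and Hif3a, out of 21887 protein-coding genes of the annotation. A peak was counted for a gene when its midpoint lay inside the gene or within 5 kb of its start or end. By this rule 24 of 9474 peaks were counted for the 10 genes, 23 of them from the H3K4me3 list and 1 from the K17KO p53 list. The genes were proposed for their shared function with results of these peak lists already known, and their peaks were selected on deposited peak positions, so the counts are given as a description, with no test.

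The peaks came from chromatin immunoprecipitation and sequencing of mouse back skin taken at 8 to 10 weeks of age, under a radiation treatment of 5 Gy that the labels give for every sample, those at T0 included. The 12 samples fall into 6 groups of 2, namely p53 in K17KO skin at 6 h and at T0, p53 in wild-type (WT) skin at 6 h and at T0, and trimethylated lysine 4 of histone H3 (H3K4me3) in WT skin at 6 h and at T0. The labels write the second genotype as K17KO without spelling it out. The allele, the strain and whether each sample stands for its own animal are likewise not stated in the labels. Back skin is a mixture of cell types, so a peak cannot be assigned to one of them. The deposited data were 3 peak lists with 1101 peaks for K17KO p53, 2909 for p53 with no genotype named, taken as WT, and 5464 for H3K4me3. No list names a library, a time point or a control, so nothing below compares 6 h with T0 and no value has a replicate error.

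Glucocorticoids act through the glucocorticoid receptor, a nuclear receptor encoded by Nr3c1. Bound to hormone, it enters the nucleus and binds glucocorticoid response elements, short palindromes in promoters and enhancers, from which it raises transcription. In skin the hormone restrains inflammation and keratinocyte growth, and the genes described here include receptor feedback (Fkbp5), anti-inflammatory and kinase signalling (Tsc22d3, Dusp1, Sgk1), transcription factors (Zbtb16, Klf9, Cebpd, Hif3a) and fuel use (Pdk4, Angptl4). H3K4me3 marks active promoters, and p53 is the transcription factor that DNA damage activates.

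Promoter sequences from RefSeq (assembly GRCm38.p6, the same coordinates as mm10) were held for 7 of the 10 genes, with 14 annotated starts. The 250 bases before the start are printed for 5 starts. The first holds a complete response element, the next 3 lie at starts whose promoter windows overlapped an H3K4me3 peak, and the last belongs to the gene with the p53 peak. Capitals mark exact matches to the palindrome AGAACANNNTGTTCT, used here for the response element, and to its single arm, AGAACA or TGTTCT on the other strand. The sequences without capitals hold no exact match. Elements that differ from these letters were not searched for, so they cannot be called absent. The sites are Sgk1 at chr10:21993640-21993889 (+), Tsc22d3 at chrX:140542669-140542918 (-) and at chrX:140600523-140600772 (-), Pdk4 at chr6:5496279-5496528 (-) and Fkbp5 at chr17:28486150-28486399 (-).
Sgk1, start 5 of 6: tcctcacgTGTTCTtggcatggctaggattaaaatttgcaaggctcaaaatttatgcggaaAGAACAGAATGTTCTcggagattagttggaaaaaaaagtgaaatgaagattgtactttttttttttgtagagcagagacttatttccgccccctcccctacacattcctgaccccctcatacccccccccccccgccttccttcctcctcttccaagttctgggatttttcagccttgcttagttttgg
Tsc22d3, start 3 of 3: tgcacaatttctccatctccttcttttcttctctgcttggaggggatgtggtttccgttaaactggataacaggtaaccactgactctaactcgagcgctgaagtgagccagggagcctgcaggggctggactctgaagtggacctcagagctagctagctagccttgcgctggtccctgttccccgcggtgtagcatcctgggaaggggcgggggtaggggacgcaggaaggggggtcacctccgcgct
Tsc22d3, start 1 of 3: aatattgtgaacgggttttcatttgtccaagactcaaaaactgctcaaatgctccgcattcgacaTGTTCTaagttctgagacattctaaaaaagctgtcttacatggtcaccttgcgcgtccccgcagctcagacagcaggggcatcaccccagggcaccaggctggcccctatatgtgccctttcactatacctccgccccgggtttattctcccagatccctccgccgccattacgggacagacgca
Pdk4: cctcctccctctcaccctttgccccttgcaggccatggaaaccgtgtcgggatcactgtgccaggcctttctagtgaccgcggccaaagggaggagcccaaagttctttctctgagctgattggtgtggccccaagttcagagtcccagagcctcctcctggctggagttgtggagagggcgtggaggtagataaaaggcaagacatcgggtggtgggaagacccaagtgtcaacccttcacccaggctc
Fkbp5: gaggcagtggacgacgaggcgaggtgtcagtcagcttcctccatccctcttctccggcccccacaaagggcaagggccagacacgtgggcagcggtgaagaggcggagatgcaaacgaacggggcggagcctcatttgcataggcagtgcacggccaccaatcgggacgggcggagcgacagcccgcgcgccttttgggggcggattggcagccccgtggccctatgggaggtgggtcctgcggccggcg

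In the Sgk1 sequence the full palindrome begins 189 bases before the start, and a further single arm begins 242 bases before it. The exact palindrome was in 3 of the 32851 promoters of the table over the same 250 bases (0.00913%), which is not the share with any response element. The other promoters that held it belong to Acnat2 and Gm35041, named after the search. A single arm was in 4 of the 14 promoters, from Sgk1 and Tsc22d3, and in 16.1% of all promoters. In Tsc22d3 it begins 185 bases before the first start. The p53 decamer consensus, searched on both strands, was in 0 of the 14 promoters and in 7.13% of all. A match is a description of these letters and not a measure of binding.

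Each of the 10 genes had an H3K4me3 peak, against 23.9% of all protein-coding genes. For 9 of them a peak midpoint lay inside the gene itself (18.5% of all genes). Several peaks at a gene were common: 6 of the 10 had at least 2 (4.2% of all genes), 5 had at least 3 (0.982%) and 2, Klf9 and Sgk1, had 4 (0.297%). The single peak counted for Hif3a lay inside a neighbour, Ppp5c. Long genes can hold more midpoints, so the count was also read by span. All 3 members under 10 kb (Dusp1, Angptl4 and Cebpd) had a peak, against 17.4% of genes of that span, as did all 3 from 10 to 50 kb (25.2%) and all 4 over 50 kb (31.8%). Genes with a CpG-rich promoter, at a ratio of observed to expected CpG of at least 0.6, had a peak in 36.2%, and other genes in 11.3%.

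**Figure D1:**
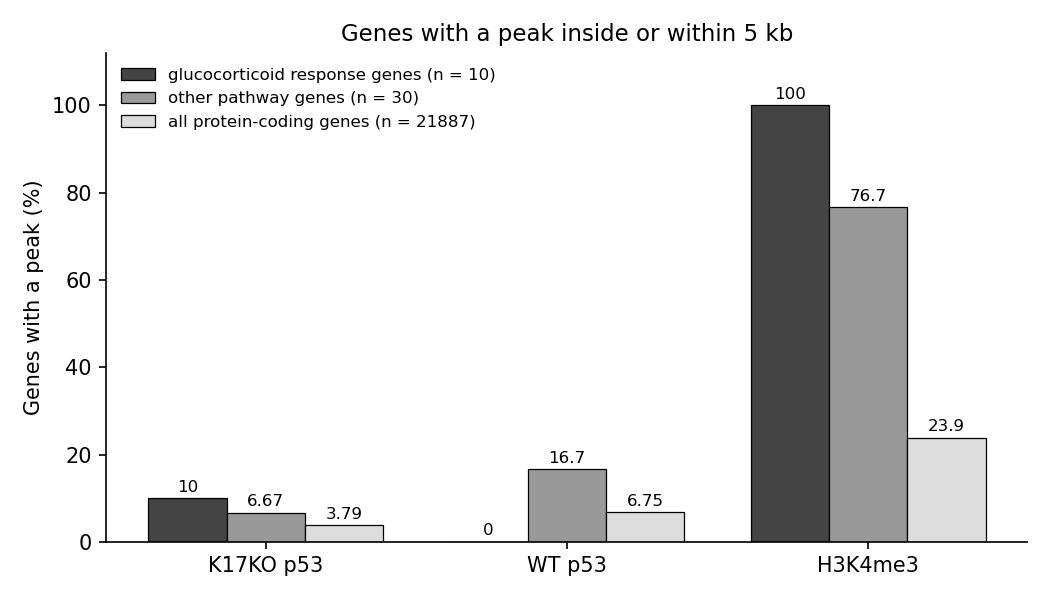
Percentage of genes with a peak midpoint inside the gene or within 5 kb, for the 10 glucocorticoid response genes, 30 other pathway genes and all 21887 protein-coding genes, in each of the 3 peak lists. The H3K4me3 bars stand at 100%, 76.7% and 23.9%, while the p53 bars stay at or below 16.7%.

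The fold enrichment given below is the authors' own value for a peak, a ratio of its fragments to the caller's background. Fragments and background were recovered from the deposited fold and p-value. Across the 23 H3K4me3 peaks of the 10 genes the fold ran from 1.23 to 4.64 with a median of 1.79, beside 1.66 for the whole list. Taken separately, the median number of fragments was 100 and the median background 58.5, beside 148 and 90.7 for the whole list. Of the 23 peaks, 15 had a fold above the list's median and 18 a background below the list's median. If its control itself carried H3K4me3, a peak marks a difference from that control and not the presence of the mark, which was not tested.

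**Figure D2:**
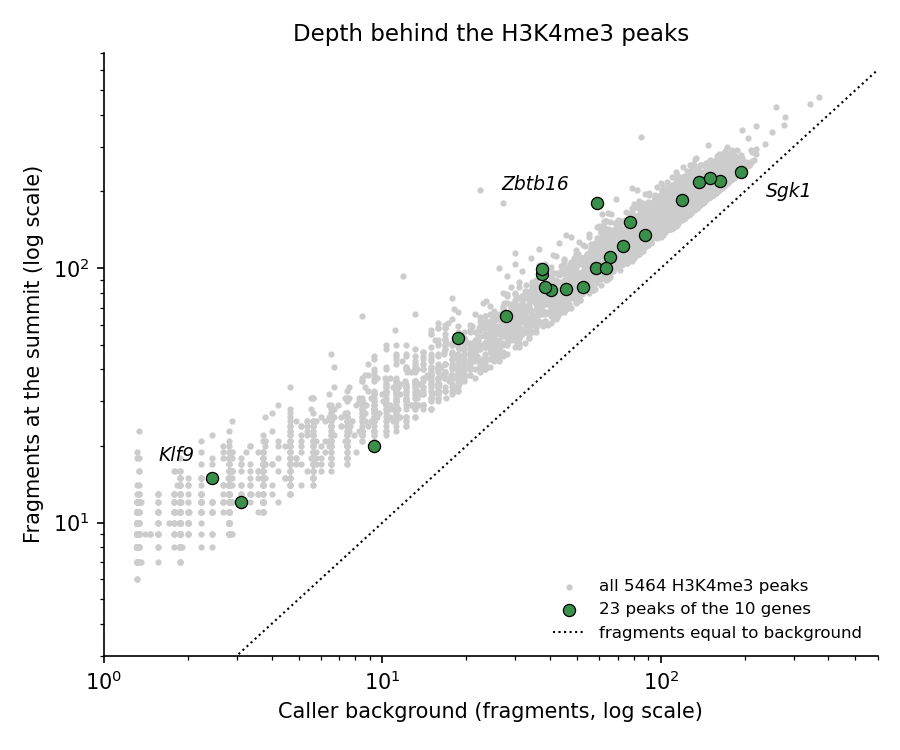
Fragments at the summit against the caller's background, both on log axes, for all 5464 H3K4me3 peaks (grey) and the 23 peaks of the 10 genes (green). The highest Klf9 fold rests on 15 fragments over 2.45 and the lowest Sgk1 fold on 239 over 194, while the Zbtb16 peak of 181 over 58.9 stands above the main band.

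Fkbp5 encodes a co-chaperone of the glucocorticoid receptor complex that lowers the receptor's affinity for hormone, and its induction closes a feedback loop. It was the only member with a p53 peak, in the K17KO list. That peak spanned chr17:28472312-28472700, inside the gene and 13643 bp downstream of its start. It had a fold of 5.35, at percentile 78.1 of its list, and rested on 10 fragments (95% Poisson interval 4.80 to 18.4, counting error only) over a background of 1.06. Its −log10 q was 3.08. The WT p53 list had no peak near Fkbp5, and its nearest lay 284 kb away, inside Mapk13. That WT peak rested on 5 fragments, and its −log10 q of 0.376 was the lowest of the WT list. The Fkbp5 H3K4me3 peak was 1129 bp wide, centred 691 bp downstream of the start, and had a fold of 1.35 from 220 fragments over 163. This fold was at percentile 9.34 of the list, and the p53 peak overlapped no H3K4me3 peak.

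Tsc22d3 encodes GILZ, a leucine zipper protein that carries much of the anti-inflammatory effect of glucocorticoids. Its 3 H3K4me3 peaks lay at the first and the last of its annotated starts. At the last start a peak of 2733 bp, the widest of the 23, covered all 300 bases of the promoter window and had a fold of 1.66 from 122 fragments over 72.9. At the first start, 57.9 kb upstream, the peaks were centred 303 and 1003 bp downstream, with folds of 2.29 (65 fragments over 27.8) and 1.79 (83 over 45.8). No peak lay at the start between them.

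Dusp1 encodes a phosphatase that switches off the stress-activated MAP kinases. Its peaks were centred 868 and 1715 bp downstream of the start, with folds of 1.54 (135 fragments over 87.4) and 1.70 (100 over 58.5). Both lie within the gene, which spans 2.88 kb, and both folds are close to the list's median.

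Sgk1 encodes a kinase that regulates ion channels and cell survival. It has 6 annotated starts, and its 4 H3K4me3 peaks all lay at or beyond the fifth, in the last 5.68 kb of a gene of 118 kb. The peak 331 bp downstream of the fifth start, the start preceded by the full response element printed above, had the lowest fold of the 23, at 1.23 from 239 fragments over 194. Its −log10 q was 0.270. The peak 283 bp downstream of the sixth start had a fold of 1.55 (185 fragments over 119), and those 2530 and 4283 bp downstream of it had 1.59 and 1.69.

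**Figure D3:**
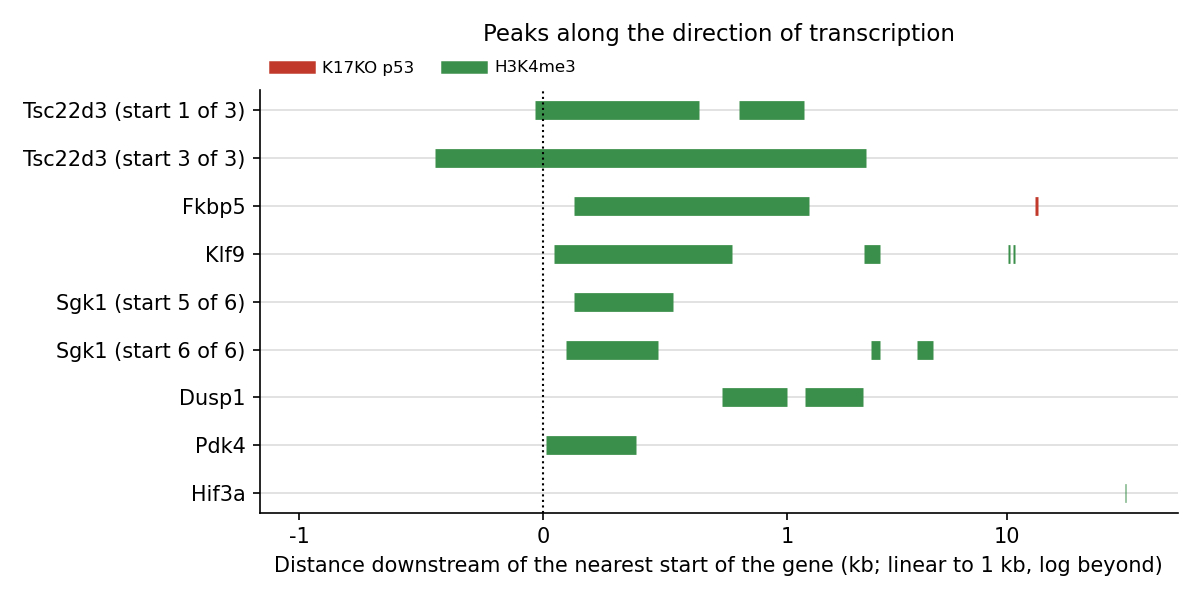
Peaks of the 7 genes whose strand the RefSeq promoter table gives, drawn to their width at their distance downstream of the nearest start of the same gene (linear to 1 kb, log beyond). Green bars are H3K4me3 and the red bar is the K17KO p53 peak in Fkbp5, 13643 bp from the start; H3K4me3 midpoints lie downstream of the start in every row, and in Hif3a 34767 bp away, beyond the gene.

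Zbtb16 encodes PLZF, a zinc finger repressor, and had the H3K4me3 peak of smallest p-value among the members. That peak, at chr9:48833957-48835479, was 1523 bp wide and lay 1507 bp inside the end of higher coordinate. Its fold was 3.04 from 181 fragments over 58.9, and its −log10 p of 37.1 stood at percentile 99.9 of the list. Another peak lay 568 bp outside the same end (2.01-fold, 82 over 40.3). The peak 2401 bp outside the opposite end, had 20 fragments over 9.35 and a −log10 q of 0.343.

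Klf9 encodes a Krüppel-like transcription factor that glucocorticoids induce in many tissues. Its 4 H3K4me3 peaks had folds of 1.58, 2.50, 4.64 and 3.16, in order along the gene. The first was centred 411 bp downstream of the start and had 218 fragments over 137. The next, at 2444 bp, had 95 over 37.4, and its p-value was at percentile 95.8 of the list. The others lay 10273 and 10790 bp downstream, in the gene body. These had the highest folds of the 23 peaks and rested on 15 fragments (95% Poisson interval 8.40 to 24.7) over 2.45 and on 12 (6.20 to 21.0) over 3.12.

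Cebpd encodes C/EBPδ, a transcription factor of the acute phase response, and Hif3a a member of the hypoxia-inducible factor family. Cebpd had a single peak 240 bp wide inside the gene, which spans 2.26 kb, with a fold of 1.56 from 100 fragments over 63.6. The peak counted for Hif3a, with 226 fragments over 150 and a fold of 1.51, lay 3333 bp outside the gene, beyond the end opposite the start. Its midpoint was inside Ppp5c, which encodes a protein phosphatase, and no H3K4me3 midpoint lay in Hif3a itself. It was the counted peak nearest the 5 kb limit. The closest uncounted H3K4me3 peak to any member lay 27.2 kb from Tsc22d3.

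Pdk4 encodes a kinase that inhibits pyruvate dehydrogenase and so spares glucose, and Angptl4 a secreted inhibitor of lipoprotein lipase. Pdk4 had a single sharp peak of 369 bp centred 196 bp downstream of its start, with 99 fragments over 37.4, a fold of 2.60 and a −log10 p of 16.7 (percentile 97.7). It reached 38 bp into the promoter window. Angptl4, which spans 6.68 kb, had 3 peaks whose midpoints lay 162, 1312 and 2496 bp inside the end of higher coordinate. Their folds were 1.95 (152 fragments over 77.6), 2.16 (84 over 38.3) and 2.74 (53 over 18.7), so the fold was higher with distance from that end while the fragments were fewer.

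**Figure D4:**
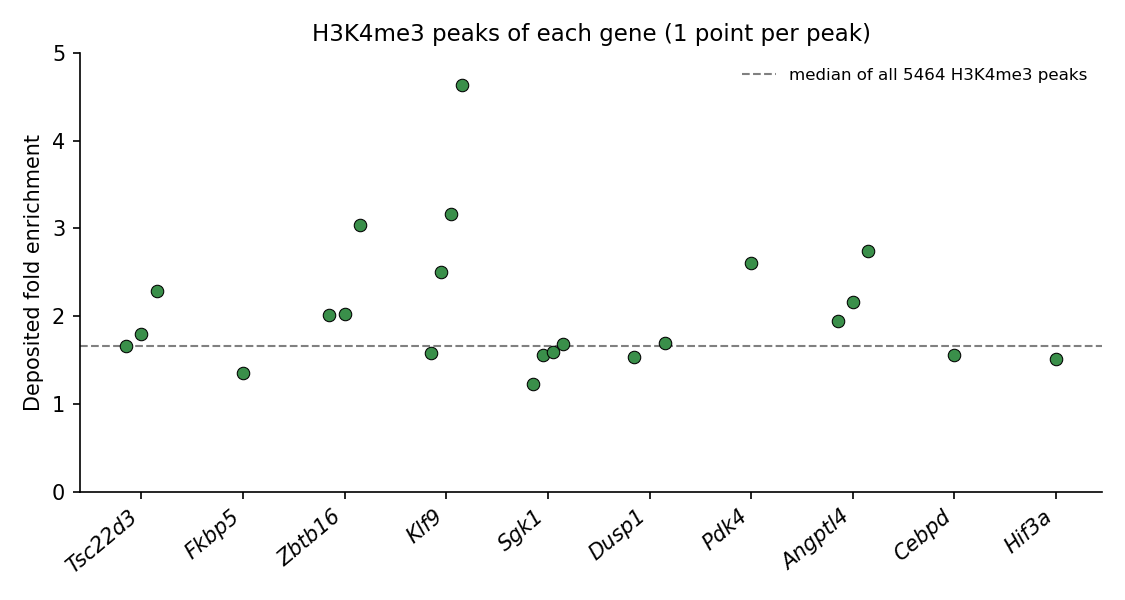
Deposited fold enrichment of each H3K4me3 peak, 1 point per peak, for the 10 genes, with the median of all 5464 peaks (1.66) as a dashed line. The points of Tsc22d3, Zbtb16, Klf9, Pdk4 and Angptl4 reach above 2, while those of Fkbp5, Sgk1, Dusp1, Cebpd and Hif3a stay below 1.7.

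Position relative to the start could be read for 6 of the 10 genes, namely Tsc22d3, Fkbp5, Klf9, Sgk1, Dusp1 and Pdk4, which have a known strand and a peak within 5 kb of a start. Their 13 H3K4me3 peaks within that distance were centred downstream of the start, at a median of 868 bp. Of the 3347 peaks of the whole list within 5 kb of the nearest protein-coding start, 83.3% were downstream, at a median of 270 bp, so the members' count is near that of the list. A peak overlapped a 300-base promoter window (250 bases before the start and 50 after) in 4 of the 7 genes, namely Tsc22d3, Pdk4, Sgk1 and Klf9, against 6.0% of genes in the table. The overlap was 8 bp in Sgk1, at its sixth start, and 3 bp in Klf9. Promoters of the members had a median GC content of 57.3%, beside 52.7% for all promoters. The ratio of observed to expected CpG was at least 0.6 in 6 of the 14, beside 35.8% of all. Of the 14 promoters, 6 belong to Sgk1 and 3 to Tsc22d3. By gene, Dusp1, Fkbp5, Klf9, Sgk1 and Tsc22d3 had a promoter at or above 0.6, and Pdk4 and Hif3a had none. Among all protein-coding genes of the promoter table, 8896 of 17492 had one.

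For p53, 1 of the 10 genes had a K17KO peak, Fkbp5, against 3.79% of all protein-coding genes, and 0 of the 10 a WT peak, against 6.75%. With 10 genes these counts are near the background. The Fkbp5 peak was the nearest p53 peak of any gene here, and the next nearest K17KO peaks lay 124 kb from Hif3a, inside Ptgir, and 135 kb from Cebpd, inside Spidr. K17KO peaks were 201 kb from Zbtb16, 372 kb from Sgk1, 577 kb from Angptl4, 818 kb from Pdk4, 926 kb from Dusp1, 1510 kb from Klf9 and 3676 kb from Tsc22d3. The nearest WT peak to any member was 118 kb from Angptl4, inside Smim40, with a fold of 5.02 from 9 fragments over 0.992. The others were 181 kb from Sgk1, 190 kb from Dusp1, 373 kb from Cebpd, 399 kb from Zbtb16, 487 kb from Hif3a, 545 kb from Klf9, 810 kb from Pdk4 and 10983 kb from Tsc22d3.

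The median distance over the 10 genes was 474 kb to a K17KO peak, against 581 kb over all protein-coding genes, and 386 kb to a WT peak, against 242 kb. In the K17KO list 4 of the 10 genes were farther from a peak than the median gene, and in the WT list 7. Tsc22d3 was the extreme in both, as 8.07% of genes were at least as far from a K17KO peak and 0.704% from a WT peak. It is the only member on chromosome X, and these shares are over genes of all chromosomes. Whether the distance is particular to the gene or shared along that chromosome was not tested. The lists differ in their number of peaks and in their weakest peaks, so counts and distances are read within a list. The lowest −log10 q was 1.04 in the K17KO list and 0.376 in the WT list. All 1101 K17KO peaks had a q-value of at most 0.1, but only 1754 of the 2909 WT peaks did.

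**Figure D5:**
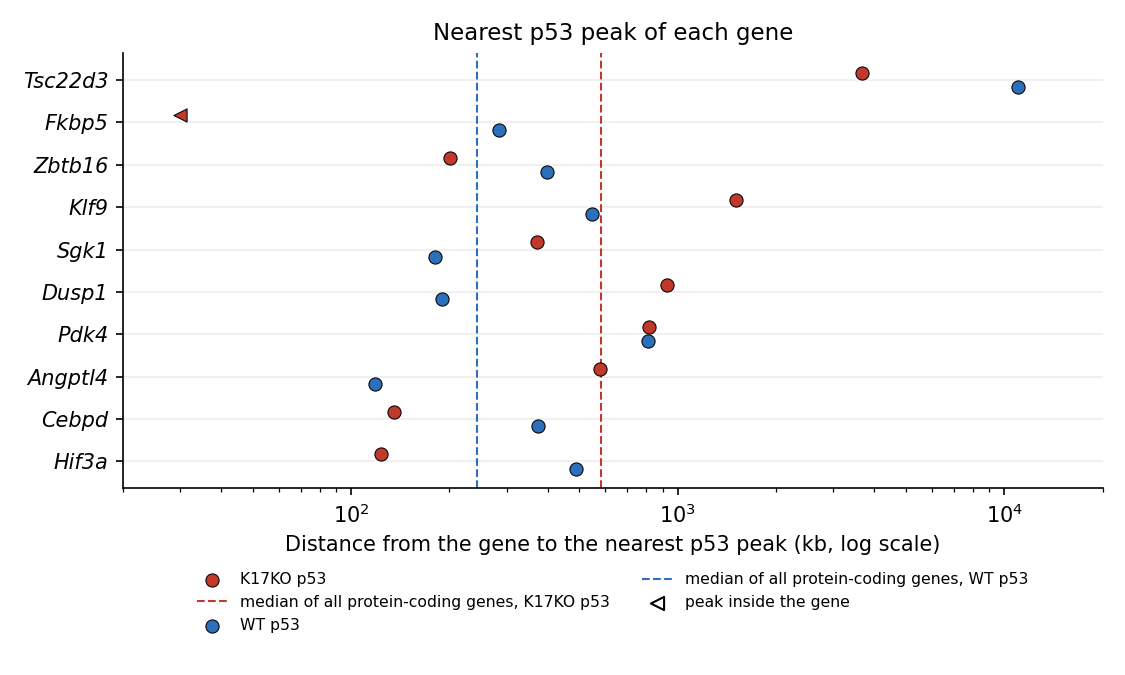
Distance from each gene to its nearest p53 peak, on a log axis, for the K17KO list (red, upper point) and the WT list (blue, lower point), with the median of all protein-coding genes in each list as a dashed line. The triangle at the left marks the K17KO peak inside Fkbp5; all other distances are 118 kb or more.

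The rest of the pathway was followed in 30 further genes of glucocorticoid signalling and response. An H3K4me3 peak was found at 23 of them (76.7%, against 23.9% of all genes), with 38 peaks of a median fold of 1.62. Hsd11b1, which regenerates active glucocorticoid from its inert form, had the highest fold, 3.94, on 14 fragments over 2.80. Per1, a clock repressor that glucocorticoids also induce, had 4 peaks with folds of 1.54, 2.71, 1.47 and 1.97. The metallothionein gene Mt2 reached 2.40, the repressor Bcl6 2.39 and Nfkbia, the NF-κB inhibitor, 2.27. Cdkn1c, a cell cycle inhibitor, reached 1.91, and Il1r2, the interleukin-1 decoy receptor, 1.84, with its peak also inside Gm16894. The single peaks of Cdkn1c and Il1r2 were weak by significance, with a −log10 q of 0.853 and 0.678. Their p-values were at percentiles 7.88 and 5.53 of the list. The receptor gene Nr3c1 itself had 1 peak inside the gene, with a fold of 1.48 from 194 fragments over 131.

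A K17KO p53 peak was found at 2 of the 30 genes (6.67%, against 3.79% of all genes). Both, Nrip1 and Ncoa2, span over 50 kb, and 7.79% of genes of that span had such a peak. Nrip1, a nuclear receptor co-repressor, had 2, at 6.65-fold (12 fragments over 0.956) and 5.11-fold (9 over 0.956). The 6.65-fold peak, 630 bp downstream of a start, overlapped an H3K4me3 peak by 16 bp. Ncoa2, a receptor coactivator, had a peak of 4.12-fold with 11 fragments over 1.91. A WT p53 peak was found at 5 of the 30 (16.7%, against 6.75%). These were Foxo1, a forkhead factor, with peaks of 4.68-fold and 4.72-fold on 8 fragments each, the coactivator Ncoa1 with 4.69-fold (13 over 1.98), Nr3c1 with 4.20-fold (7 over 0.906) at 4149 bp outside the gene, the mineralocorticoid receptor gene Nr3c2 with 3.86-fold (7 over 1.07), and Errfi1, an EGF receptor inhibitor, with 3.02-fold (8 over 1.98). Genes over 50 kb had a WT peak in 17.1%, and the peaks of Foxo1, Ncoa1 and Nr3c2 lay at least 25030 bp from a start.

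Cell type markers were looked up for the labelled tissue. An H3K4me3 peak was at 23.9% of all protein-coding genes, and with so few markers the counts below cannot identify a tissue. Of 5 keratinocyte markers, Krt1 and Krt10 had an H3K4me3 peak and Krt5, Krt14 and Trp63 had none, although they are defining markers of this tissue. A peak was also at Col1a2 of 3 fibroblast markers and at Plin1 of 2 adipocyte markers, and at 0 of 3 genes of other organs, 0 of 2 endothelial, 0 of 2 immune and 0 of 2 melanocyte markers. A WT p53 peak lay at 1 of the 2 melanocyte markers, and no other marker had a p53 peak in either list. Over all protein-coding genes the shares were 6.75% for WT p53 and 3.79% for K17KO p53.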

How the data were processed

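The 3 peak lists have 10 columns and no header. Per the submitters' processing notes, which state no role or order, the tools were MACS2 (2.1.2), Bowtie2 (2.2.5) and SAMtools (1.7), with mm10. The sources used here do not name the libraries, control or threshold of a list, nor whether samples were pooled for calling. In the deposited lists the fold enrichment is a ratio, and significance is given per peak as −log10 p and −log10 q. The deposited score was not used.

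Fragments at the summit were recovered with Python 3.11.15 and scipy 1.17.1 as the whole number for which the fold equals fragments plus 1 over background plus 1, and p is the upper Poisson tail. Both were matched within 0.001 in −log10 p for 100.0% of peaks. On data simulated with this same formula, 500 of 500 fragment numbers were recovered. All 200 genes, among 21887, with a peak planted inside the counting window were found. These runs check the code only and cannot show that the formula holds for the deposited peaks. The recovered depths, with medians of 11, 7 and 148 fragments for K17KO p53, WT p53 and H3K4me3, limit single p53 peaks most.

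Genes and strands came from RefSeq tables of GRCm38.p6. The 10 genes and the 30 further genes were chosen with earlier results of these data known. Named among the latter are Nr3c1, Per1, those with a p53 peak and those among the 8 with the highest H3K4me3 fold, except an item that is counted but not reported here. Exons and introns are not in the tables used.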

Additional observations from a re-analysis of the deposited data

How the results depend on the processing

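With 9 other settings of window, position and threshold, H3K4me3 peaks were found at 7 to 10 of the 10 genes, the lowest with the 50% of peaks of highest fold (10.8% of all genes), and at 8 with q-values up to 0.01 (18.4%). No setting gave a WT p53 peak at a member. The K17KO count of 1 became 0 when only peaks within 5 kb of a gene end were counted (2.37% of all genes), because the Fkbp5 peak lies deeper in the gene. Among the other pathway genes, the upper 50% by fold left 13 with an H3K4me3 peak in place of 23 (10.8% of all genes). A q-value of at most 0.1 left 20 (22.0%), and Cdkn1c and Il1r2 were not among them. The upper 50% by fold left 1 with a K17KO p53 peak in place of 2 (1.91%). The count of 5 with a WT p53 peak became 3 at a q-value of at most 0.1 (4.07% of all genes) and 1 at 0.01 (0.822%). It became 3 in the upper 50% by fold (3.58%) and 2 at gene ends only (2.72%). The members had only 1 p53 peak, in Fkbp5, and it met no H3K4me3 peak under the main or both other overlap rules. The share of all p53 peaks that overlap an H3K4me3 peak is not given, so this says little about the members. Counting midpoints inside the gene alone was chosen after seeing the data. No paired analysis was possible because the lists name no sample or replicate, and leaving out a replicate was not run for the same reason. Single p53 peaks rest on few fragments, which limits them, and a gene with no peak in a list cannot be called unbound at this depth.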

Other observations

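Other genes of glucocorticoid response, named after their values were seen, had 1 or 2 H3K4me3 peaks each. The metallothionein gene Mt1, which buffers metals, had 2 peaks of 1.64-fold and 1.48-fold, centred 425 and 1037 bp downstream of a start, beside 2.40-fold and 1.91-fold at Mt2. Ddit4, an inhibitor of mTOR signalling, had 2 peaks of 1.61-fold and 1.83-fold, the first 1793 bp wide. The forkhead factor genes Foxo1 (1.57-fold and 1.46-fold) and Foxo3 (1.52-fold and 1.51-fold) and the insulin receptor substrate gene Irs2 (1.59-fold and 1.67-fold) had 2 peaks each. The peak counted for Lcn2, which encodes lipocalin, lay 3020 bp outside the gene and inside 1110008P14Rik. The receptor chaperone genes Hsp90aa1 (1.73-fold) and Hsp90ab1 (1.60-fold and 1.41-fold) had peaks on high backgrounds of 150, 179 and 99.5 fragments. In all, 12 of the 30 pathway genes had at least 2 H3K4me3 peaks, against 4.2% of all protein-coding genes.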
